A study of Xenopus laevis with 9 samples.

Results

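The genes described here are the Wnt ligands, the frizzled receptors and the secreted antagonists of the sFRP, Frzb and Dickkopf families of *Xenopus laevis*, taken from the count table by symbol (wnt, fzd, sfrp or dkk with a number, or frzb). They were 69 of the 58413 rows, made up of 36 Wnt ligands, 17 frizzleds, 11 sFRP-type antagonists (sfrp, frzb and frzb2) and 5 Dickkopfs. *X. laevis* is an allotetraploid frog, so many genes are present as a long-chromosome (L) and a short-chromosome (S) copy, and these homeologs were kept apart. The libraries came from anterior pieces of wild-type embryos from 3 females, dissected at stage 12.5 of Nieuwkoop and Faber and kept in treatment until stage 15, an early neurula stage. The groups were 1 µM retinoic acid (RA), 10 µM 4-oxo-RA and DMSO, a common solvent for retinoids (10 µM in the labels), with 3 libraries each. The labels mention no transgene or mutation in any group and do not say whether replicates were separate cultures or how many pieces were pooled, so p-values measure sample-to-sample spread that could be technical. Both retinoids were set against the same DMSO libraries.

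Wnts are secreted lipid-modified ligands that bind frizzleds, the multi-pass receptors of the cell surface. With Lrp co-receptors this stabilises beta-catenin, which acts with Tcf and Lef proteins on target genes, and other Wnts signal without beta-catenin to planar polarity and cell movement. The sFRPs and Frzb carry a frizzled-like domain that binds Wnts outside the cell, and Dickkopfs bind the Lrp co-receptors. In the vertebrate neural plate Wnt signals promote posterior fates, forebrain formation requires their restriction, and RA is a further posteriorising signal that the embryo makes from vitamin A. The retinoid 4-oxo-RA is an oxidised derivative of RA that carries an added keto group on its ring.

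Library totals lay between 9.77 and 16.2 (in units of 10⁶ counts) in retinoid-treated samples and between 9.40 and 20.9 in DMSO samples. The levels below are CPM, the read counts of a gene scaled to a common library size with TMM factors. They are not corrected for gene length, so levels are compared between libraries and not between genes. A gene was called at an adjusted p below 0.05 in edgeR's quasi-likelihood test over all 20811 genes that passed the filter on low counts. Libraries with the same replicate number deviated together across treatments, so a second edgeR fit with the replicate number as a block is given for these genes wherever it changed a call, and a gene called with the block alone passed in that fit and not in the fit by treatment. Markers of forebrain and midbrain (otx2, fezf2, hesx1, rax, six3) were present in every library, and no posterior Hox gene on the list of trunk and tail markers passed the filter, while cdx1.S, cdx2.L, cdx4.L and tbxt.S did. The somite marker actc1.L had 163, 12.9 and 5.71 CPM in RA libraries 1, 2 and 3, 177, 38.9 and 55.7 CPM in 4-oxo-RA libraries and 266, 86.5 and 19.6 CPM in DMSO libraries. Replicate 1 was the library of highest actc1.L in each group. The summed somite rows ran from 9.4 to 201 CPM in RA libraries, 47.6 to 211 CPM in 4-oxo-RA libraries and 25.7 to 301 CPM in DMSO libraries, and actc1.L was called lower with RA by the block alone (edgeR adjusted p = 0.0433). The trunk and tail rows summed to 30.7 to 51.3 CPM in RA libraries, 28.8 to 33.6 CPM in 4-oxo-RA libraries and 26.0 to 55.1 CPM in DMSO libraries, and tbxt.S fell with RA by the block alone (edgeR adjusted p = 0.0173).

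Of the 69 genes, 45 passed the filter, namely 20 Wnts, 14 frizzleds, 9 sFRP-type antagonists and 2 Dickkopfs. Of the other 24, 9 had 0 counts in every library (wnt2.L, wnt7b.L, wnt10b.S, wnt11.L, fzd7.S, fzd9.S, frzb2.S, dkk1.L and dkk2.S), which allows a level of up to 0.0731 CPM over the RA group, 0.0799 CPM over the 4-oxo-RA group and 0.0606 CPM over the DMSO group. The remaining 15 had at most 9 counts in a library. They included both copies of wnt3, wnt6, wnt7c and wnt16, and wnt5a.L and wnt8a.S. For dkk1, fzd7 and frzb2, genes well known from the frog embryo, the homeolog that the table lists with counts was therefore a single one (dkk1.S, fzd7.L and frzb2.L).

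RA raised 2 of the 45 tested genes and lowered 1, which is 6.67% against 1.68% of all genes tested. The Wnt antagonist sfrp2.S and the ligand wnt5b.S were higher and the brain ligand wnt8b.S was lower. With the replicate block 3 were higher and 11 lower, 31.1% of the tested set, against 6.67% of all genes. With 4-oxo-RA the call was sfrp2.S alone, 2.22% of the set against 0.735% of all genes, and with the block 3 were higher and 6 lower, 20% against 3.36%. Of the calls made with the block alone, those of wnt1.L, wnt1.S and fzd5.S with RA were kept whichever replicate number was left out of the blocked fit, an alternative chosen after seeing the data. Every other such call, with RA or 4-oxo-RA, was lost without at least 1 of the numbers, as given beside the gene’s values. Of all genes 1.22% were higher and 0.456% lower with RA in the fit by treatment and 3.5% and 3.17% with the block, while 0.625% were higher and 0.111% lower with 4-oxo-RA and 2.05% and 1.31% with the block. An unadjusted edgeR p below 0.05 in the fit by treatment was reached by 19 of the 45 with RA and 14 with 4-oxo-RA. Over all 20811 genes tested the counts were 1961 and 1298. The median log2 change over the 45 genes was −0.14 for RA and −0.03 for 4-oxo-RA, with a median of 0 over all genes in both comparisons. The RA and DMSO libraries did not overlap for 17 of the 45, 7 higher and 10 lower, against 14.7% of all genes (7.78% higher and 6.96% lower), and the 4-oxo-RA and DMSO libraries for 16, 7 higher and 9 lower, against 11.2% of all genes (5.9% higher and 5.28% lower).

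**Figure D1:**
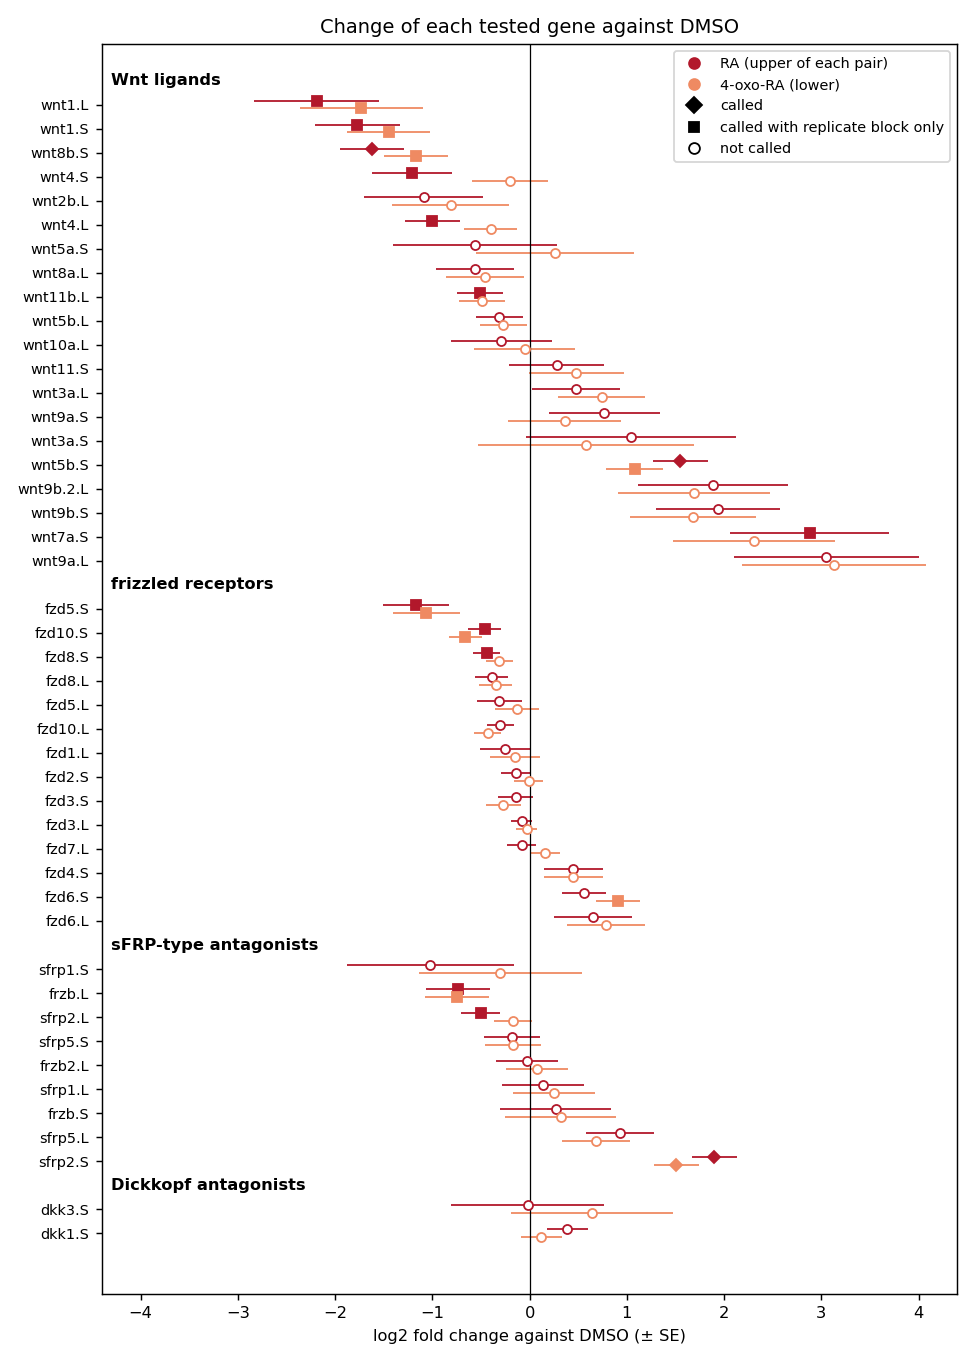
Log2 fold change against DMSO (horizontal axis, ± SE) of each of the 45 tested genes, grouped by role, with RA above 4-oxo-RA in each pair. Diamonds mark calls of the fit by treatment, squares calls made with the replicate block alone, and open circles genes not called. Among called genes wnt1.L lies furthest left with RA, at −2.19, and wnt7a.S furthest right, at 2.88, followed by sfrp2.S at 1.90 and wnt5b.S at 1.55.

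Of the 20 tested ligands 1 rose and 1 fell with RA in the fit by treatment, and 2 rose and 6 fell with the block. That is 10% and 40% of the 20, against 1.68% and 6.67% of all genes. With 4-oxo-RA none was called by edgeR in the fit by treatment, while 1 rose and 3 fell with the block. That is 0% and 20%, against 0.735% and 3.36% of all genes. An unadjusted edgeR p below 0.05 in the fit by treatment was reached by 10 of the 20 with RA and 7 with 4-oxo-RA. Over all 20811 genes the counts were 1961 and 1298. DESeq2, by treatment, called wnt8b.S with 4-oxo-RA and added wnt1.L, wnt1.S and wnt4.L with RA. The largest negative values among the ligands were those of wnt1.L, wnt1.S and wnt8b.S with both retinoids. Wnt1, a signal of the dorsal midbrain and of the boundary of midbrain and hindbrain, was low after both retinoids in both copies. The L copy had 4.95, 1.90 and 0.902 CPM in RA libraries 1, 2 and 3, 7.21, 2.14 and 1.37 CPM in 4-oxo-RA libraries and 12.8, 9.60 and 12.42 CPM in DMSO libraries. The S copy had 4.67, 1.85 and 1.13 CPM in RA libraries, 3.24, 3.25 and 2.93 CPM in 4-oxo-RA libraries and 10.7, 8.34 and 6.80 CPM in DMSO libraries. Every retinoid library lay below every DMSO library for both copies, and RA replicate 1 was the RA library nearest to DMSO. The change was −2.19 ± 0.64 (log2, SE) for wnt1.L and −1.77 ± 0.44 for wnt1.S with RA, and neither was called by edgeR in the fit by treatment (adjusted p = 0.181 and 0.0893). With the replicate block both fell (edgeR adjusted p = 0.000615 for wnt1.L and 0.00106 for wnt1.S). DESeq2, fitted by treatment, also called both with RA (adjusted p = 0.0125 for wnt1.L and 0.00334 for wnt1.S). With 4-oxo-RA the changes were −1.73 ± 0.63 and −1.45 ± 0.43, called with the block alone (edgeR adjusted p = 0.00419 for wnt1.L and 0.0140 for wnt1.S). These 4-oxo-RA calls were lost without replicate number 2 (edgeR adjusted p = 0.0649 for wnt1.L and 0.113 for wnt1.S in the blocked fit).

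Wnt8b, a ligand of the forebrain and midbrain in vertebrate embryos, is listed under its own symbol as the S copy. It had 7.42, 3.10 and 3.31 CPM in RA libraries, 7.52, 6.26 and 5.02 CPM in 4-oxo-RA libraries and 11.5, 15.9 and 14.7 CPM in DMSO libraries. All 6 retinoid libraries were below all DMSO libraries. It fell with RA by 1.62 ± 0.33 (log2, SE, edgeR adjusted p = 0.0358), and with 4-oxo-RA the log2 change of −1.17 ± 0.33 was called with the block (edgeR adjusted p = 0.256 by treatment, 0.0161 with the block, and 0.122 or 0.134 with the block without replicate number 2 or 3). The RA call was lost, at an edgeR adjusted p of 0.0634 to 0.165, when any 1 of the 3 DMSO libraries or RA replicate 2 or 3 was left out, and at 0.071 when the 4-oxo-RA libraries were kept out of the fit. A row outside the symbol rule, LOC108696239, carries wnt8b as a provisional name. It had 1.37, 0.952 and 0.226 CPM in RA libraries, 2.61, 2.77 and 0.326 CPM in 4-oxo-RA libraries and 3.75, 7.93 and 4.61 CPM in DMSO libraries. These groups also did not overlap with DMSO, and the row was called with the block alone for RA (−2.87 ± 0.50, edgeR adjusted p = 0.00189) and for 4-oxo-RA (−1.78 ± 0.46, edgeR adjusted p = 0.0468). This row was picked out after its values were seen, and its calls were not checked with a replicate number left out.

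Most genes listed as known from forebrain and midbrain moved beside these ligands, but rax overlapped between RA and DMSO. Rax.L had 220, 174 and 203 CPM in RA libraries and 232, 191 and 273 CPM in DMSO libraries. Rax.S had 171, 117 and 82.1 CPM in RA libraries and 132, 134 and 135 CPM in DMSO libraries. Of 9 tested rows of the anterior neural list (otx2, six3, rax, fezf2, hesx1) 7 fell with RA, and their summed level was 438 to 608 CPM in RA libraries, 521 to 662 CPM in 4-oxo-RA libraries and 823 to 985 CPM in DMSO libraries. With 4-oxo-RA 2 of the 9 fell, and 7 with the replicate block. In the same list six3.S was at 0 in every library. Over all genes 0.456% fell with RA and 0.111% with 4-oxo-RA, or 3.17% and 1.31% with the block. Rows of neural crest genes (snai2, twist1, sox9) summed to 103 to 203 CPM in RA libraries, 163 to 191 CPM in 4-oxo-RA libraries and 274 to 317 CPM in DMSO libraries, and 4 of 6 fell with RA and 1 with 4-oxo-RA, or 5 and 4 with the block, while sox9.L rose with the block after both (edgeR adjusted p = 0.000114 for RA and 0.00311 for 4-oxo-RA). Outside these tissues 1 of 4 cement gland rows (pitx1.L) and 1 of 5 epidermis rows (krt70.L) fell with RA, and 0 of either list were called by edgeR with 4-oxo-RA by treatment (3 and 1 at an unadjusted p below 0.05), or 2 and 1 with the block. With RA and the block 3 cement gland rows fell, while of the epidermis rows 1 fell and krt12.4.L rose (0.34 ± 0.08, edgeR adjusted p = 0.0146). Fewer cells of a type and less RNA per cell cannot be told apart in such bulk samples, and the part of these tissues in the Wnt and frizzled values was not tested.

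Wnt4, a ligand required for the pronephros in *Xenopus* and for the kidney in mouse, was low with RA in both copies. The L copy had 14.6, 9.23 and 6.92 CPM in RA libraries, 14.2, 18.3 and 13.9 CPM in 4-oxo-RA libraries and 24.4, 21.8 and 15.1 CPM in DMSO libraries. The S copy had 4.67, 1.43 and 2.41 CPM in RA libraries, 4.28, 6.89 and 5.67 CPM in 4-oxo-RA libraries and 7.5, 7.29 and 4.61 CPM in DMSO libraries. RA and DMSO libraries did not overlap for wnt4.L and overlapped slightly for wnt4.S, whose RA replicate 1 lay just above DMSO replicate 3. The RA changes of −1.0 ± 0.28 for wnt4.L and −1.21 ± 0.41 for wnt4.S were called by edgeR with the block alone (edgeR adjusted p = 0.146 and 0.285 by treatment, 0.00271 and 0.0457 with the block). DESeq2, fitted by treatment, called wnt4.L with RA (adjusted p = 0.0217). In the blocked fit the wnt4.L call was lost without replicate number 2 (edgeR adjusted p = 0.0526), and the wnt4.S call without number 2 or 3 (edgeR adjusted p = 0.326 and 0.0937). With 4-oxo-RA the values were −0.40 ± 0.27 for wnt4.L and −0.20 ± 0.39 for wnt4.S, and neither was called in either fit.

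Of the ligands known for signalling without beta-catenin, wnt5b rose in its S copy, and wnt11b.L fell with RA by the block alone. The tested rows wnt5a.S and wnt11.S were not called in either fit. Wnt5b guides cell movements of convergent extension in zebrafish. Its S copy had 5.59, 7.08 and 4.96 CPM in RA libraries, 3.34, 4.04 and 5.34 CPM in 4-oxo-RA libraries and 1.98, 2.13 and 1.91 CPM in DMSO libraries. The groups did not overlap with DMSO, the change with RA was 1.55 ± 0.28 (log2, SE, edgeR adjusted p = 0.0209), and with 4-oxo-RA it was 1.08 ± 0.29 and called with the block alone (edgeR adjusted p = 0.218 by treatment, 0.0456 with the block, and 0.0754 to 0.359 with the block when any 1 replicate number was left out). The RA call was lost, at an edgeR adjusted p of 0.0757 to 0.0941, without RA replicate 2 or any 1 of the DMSO libraries. Its L copy had 20.4, 14.6 and 15.0 CPM in RA libraries, 21.1, 10.8 and 19.4 CPM in 4-oxo-RA libraries and 19.0, 20.2 and 22.5 CPM in DMSO libraries, and these overlapped, with no call. Wnt11b, a ligand of convergent extension in the *Xenopus* gastrula, had 30.1, 22.6 and 47.5 CPM in RA libraries, 33.9, 29.1 and 38.8 CPM in 4-oxo-RA libraries and 41.9, 46.2 and 54.5 CPM in DMSO libraries. Its RA libraries overlapped with DMSO through replicate 3, which was the highest of each group, and its 4-oxo-RA libraries did not. The change with RA, −0.51 ± 0.24, was called with the block alone (edgeR adjusted p = 0.559 by treatment, 0.0271 with the block, and 0.0557 or 0.289 with the block without replicate number 1 or 2). That with 4-oxo-RA, −0.49 ± 0.24, was called in neither fit (edgeR adjusted p = 0.887 by treatment and 0.0819 with the block).

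Wnt7a.S, whose mouse counterpart patterns the limb from the dorsal ectoderm, had 1.65, 0.238 and 2.03 CPM in RA libraries, 1.15, 0.554 and 0.912 CPM in 4-oxo-RA libraries and 0.208, 0.0906 and 0.225 CPM in DMSO libraries. All retinoid libraries lay above all DMSO libraries, but the DMSO values rest on 2, 2 and 4 counts and RA replicate 2 on 4 counts. It was higher with RA by the block alone (edgeR adjusted p = 0.161 by treatment, 0.0239 with the block, and 0.137 or 0.321 with the block without replicate number 1 or 3). A row outside the symbol rule, LOC108704038, carries wnt7a as a provisional name. It had 1.19, 0.536 and 0.677 CPM in RA libraries, 0.836, 0 and 0.717 CPM in 4-oxo-RA libraries and 1.04, 0.317 and 0.393 CPM in DMSO libraries. These groups overlapped, with no call in either fit. The largest positive value among ligands, that of wnt9a.L, rests on a total of 6 counts in the DMSO group, against 39 in the RA group and 42 in the 4-oxo-RA group, and it was not called. The 11 tested Wnts not given by library (wnt2b.L, both copies of wnt3a and of wnt9a, wnt5a.S, wnt8a.L, wnt9b.S, wnt9b.2.L, wnt10a.L and wnt11.S) ranged from −1.09 to 3.05 with RA and from −0.81 to 3.13 with 4-oxo-RA, with no call in either fit.

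**Figure D2:**
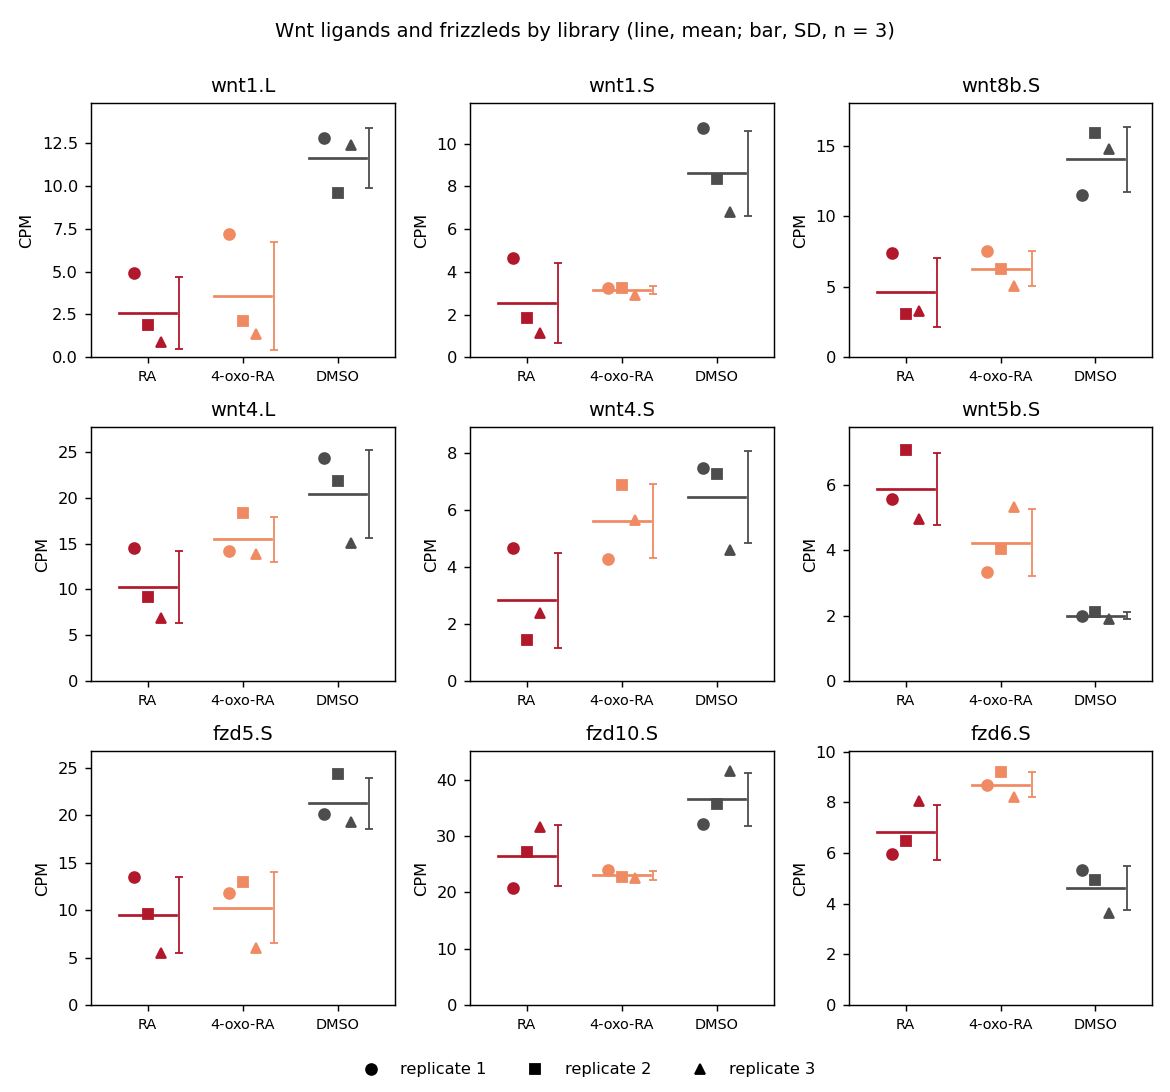
CPM by library (points, with shapes for replicate numbers) for 6 Wnt rows and 3 frizzled rows, with the mean as a line and the SD as a bar (n = 3 each). The retinoid points of wnt1, wnt8b.S and fzd5.S lie below all DMSO points, those of wnt5b.S and fzd6.S above them, and replicate 1 is the highest RA library for wnt1, wnt4, wnt8b.S and fzd5.S.

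No frizzled was called in the fit by treatment in either comparison with DMSO, among 14 tested. An unadjusted edgeR p below 0.05 was reached by 5 with RA and 5 with 4-oxo-RA, beside 1961 and 1298 of all 20811 genes. DESeq2 called fzd5.S with RA (adjusted p = 0.0237) and fzd10.S and fzd6.S with 4-oxo-RA (adjusted p = 0.0268 and 0.0281). The values were negative for 11 of 14 with RA (median −0.20) and for 10 of 14 with 4-oxo-RA (median −0.14). Over all 20811 genes 10406 and 10404 were negative. With the block 3 fell with RA (fzd5.S, fzd8.S and fzd10.S), and with 4-oxo-RA 2 fell (fzd5.S and fzd10.S) and fzd6.S rose. These were 21.4% of the 14 with each retinoid, against 6.67% of all genes with RA and 3.36% with 4-oxo-RA. The largest frizzled value belonged to fzd5, a receptor of the eye field. Its S copy had 13.5, 9.58 and 5.49 CPM in RA libraries, 11.8, 13.0 and 6.0 CPM in 4-oxo-RA libraries and 20.1, 24.3 and 19.3 CPM in DMSO libraries. All retinoid libraries were below all DMSO libraries, with changes of −1.17 ± 0.34 for RA (edgeR adjusted p = 0.170 by treatment, 0.00126 with the block) and −1.06 ± 0.34 for 4-oxo-RA (edgeR adjusted p = 0.390 by treatment, 0.00480 with the block, and 0.0568 with the block without replicate number 3). The L copy had 7.88, 6.31 and 4.74 CPM in RA libraries, 7.84, 6.73 and 6.91 CPM in 4-oxo-RA libraries and 7.5, 7.75 and 8.20 CPM in DMSO libraries, which overlapped, with no call.

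Fzd8, a receptor of the organizer and the anterior neural plate, had 127, 117 and 125 CPM of its S copy in RA libraries, 155, 124 and 123 CPM in 4-oxo-RA libraries and 165, 138 and 196 CPM in DMSO libraries. RA libraries lay below DMSO libraries, and the change of −0.44 ± 0.14 was called with the block alone (edgeR adjusted p = 0.251 by treatment, 0.0186 with the block, and 0.132 with the block without replicate number 3). Its L copy had 49.8, 52.7 and 39.9 CPM in RA libraries, 59.0, 43.2 and 44.4 CPM in 4-oxo-RA libraries and 65.7, 53.0 and 68.3 CPM in DMSO libraries, with no call (−0.39 ± 0.17 for RA, whose libraries lay just below DMSO). Fzd10, a receptor of the dorsal neural tube in *Xenopus*, had 20.8, 27.1 and 31.6 CPM of its S copy in RA libraries, 23.9, 22.7 and 22.5 CPM in 4-oxo-RA libraries and 32.2, 35.7 and 41.5 CPM in DMSO libraries. Both retinoid groups lay below DMSO, by −0.46 ± 0.17 for RA (edgeR adjusted p = 0.0481 with the block) and −0.66 ± 0.17 for 4-oxo-RA (edgeR adjusted p = 0.0115 with the block). The RA call was lost when any 1 replicate number was left out of the blocked fit (edgeR adjusted p = 0.123 to 0.161), and the 4-oxo-RA call without number 2 or 3 (edgeR adjusted p = 0.0988 and 0.131). Its L copy had 39.2, 30.3 and 34.1 CPM in RA libraries, 32.1, 34.1 and 28.2 CPM in 4-oxo-RA libraries and 42.6, 44.6 and 40.1 CPM in DMSO libraries, also without overlap and with no call in either fit.

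Fzd6, a receptor of planar polarity in mouse skin, was the frizzled that 4-oxo-RA raised with the block. Its S copy had 5.95, 6.49 and 8.04 CPM in RA libraries, 8.67, 9.19 and 8.21 CPM in 4-oxo-RA libraries and 5.32, 4.94 and 3.65 CPM in DMSO libraries. All 4-oxo-RA libraries lay above all RA libraries, which lay above all DMSO libraries. The change with 4-oxo-RA was 0.91 ± 0.23 (edgeR adjusted p = 0.181 by treatment, 0.0321 with the block, and 0.0541 to 0.197 with the block when any 1 replicate number was left out), and that with RA was 0.56 ± 0.23 with no call. Its L copy had 6.78, 8.33 and 11.5 CPM in RA libraries, 8.88, 5.86 and 14.5 CPM in 4-oxo-RA libraries and 2.81, 7.52 and 6.35 CPM in DMSO libraries, which overlapped. Fzd7, a receptor used in *Xenopus* gastrulation, was listed with counts as the L copy, at 321, 231 and 263 CPM in RA libraries, 350, 254 and 360 CPM in 4-oxo-RA libraries and 297, 277 and 288 CPM in DMSO libraries. Its values overlapped between groups and were not called. The tested frizzleds not yet given (fzd1.L, fzd2.S, both copies of fzd3 and fzd4.S) ranged from −0.25 to 0.45 with RA and from −0.27 to 0.45 with 4-oxo-RA, with no call in either fit.

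A row outside the symbol rule, LOC108708760, carries fzd4, the norrin receptor of the mammalian retina, as a provisional name. It had 6.23, 12.5 and 9.77 CPM in RA libraries, 6.06, 8.47 and 8.54 CPM in 4-oxo-RA libraries and 2.08, 3.58 and 3.48 CPM in DMSO libraries. All retinoid libraries were above all DMSO libraries. It rose with RA by 1.62 ± 0.31 (edgeR adjusted p = 0.0277), and with 4-oxo-RA the value of 1.31 ± 0.31 was called with the block alone (edgeR adjusted p = 0.150 by treatment, 0.00156 with the block). The row named fzd4.S had 10.9, 27.1 and 15.4 CPM in RA libraries, 17.9, 20.3 and 15.8 CPM in 4-oxo-RA libraries and 15.8, 13.8 and 9.89 CPM in DMSO libraries, with overlap and no call. The rows with provisional names were picked out after their values were seen, and their calls were not checked with a library or a replicate number left out.

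Sfrp2, a secreted Wnt-binding protein, was the antagonist whose S copy rose with both retinoids. That copy had 690, 866 and 711 CPM in RA libraries, 438, 714 and 584 CPM in 4-oxo-RA libraries and 230, 245 and 133 CPM in DMSO libraries. Its lowest retinoid library, 4-oxo-RA replicate 1, was above its highest DMSO library. The mean was 756 ± 96.1 CPM with RA and 579 ± 138 CPM with 4-oxo-RA, against 203 ± 60.8 CPM with DMSO (SD, n = 3 each). The rise was 3.73-fold with RA (edgeR adjusted p = 0.00149) and 2.86-fold with 4-oxo-RA (edgeR adjusted p = 0.0112), and it was called under every alternative tried. With a library left out the edgeR adjusted p reached 0.00721 with RA and 0.0478, just below the threshold, with 4-oxo-RA. The L copy had lower levels with RA, at 58.9, 35.6 and 32.5 CPM in RA libraries, 49.9, 58.5 and 50.3 CPM in 4-oxo-RA libraries and 65.0, 60.1 and 54.1 CPM in DMSO libraries. RA replicate 1 lay among the DMSO values and RA replicates 2 and 3 below them, and the change of −0.50 ± 0.20 with RA was called with the block alone (edgeR adjusted p = 0.453 by treatment, 0.0441 with the block, and 0.262 or 0.266 with the block without replicate number 2 or 3). With 4-oxo-RA it was −0.17 ± 0.20, with no call.

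Frzb, an antagonist of Wnt8 made by the *Xenopus* organizer, had 19.1, 7.92 and 9.85 CPM of its L copy in RA libraries, 13.9, 9.74 and 12.9 CPM in 4-oxo-RA libraries and 24.7, 13.9 and 23.0 CPM in DMSO libraries. The groups overlapped, with replicate 2 as the lowest and replicate 1 as the highest library in each, and the changes of −0.74 ± 0.33 with RA and −0.75 ± 0.33 with 4-oxo-RA were called with the block alone (edgeR adjusted p = 0.0132 for RA and 0.0355 for 4-oxo-RA). In the blocked fit the RA call was lost without replicate number 2 or 3 (edgeR adjusted p = 0.0772 and 0.214), and the 4-oxo-RA call without any 1 of the numbers (edgeR adjusted p = 0.0958 to 0.172). Its S copy had 3.76, 3.51 and 4.96 CPM in RA libraries, 2.19, 2.14 and 8.15 CPM in 4-oxo-RA libraries and 1.56, 2.67 and 5.73 CPM in DMSO libraries, with no call. Rows of the prechordal plate and anterior endoderm (gsc, hhex, cer1 and both frzb copies themselves) summed to 33.5 to 51.6 CPM in RA libraries, 31.9 to 44.4 CPM in 4-oxo-RA libraries and 56.4 to 91.0 CPM in DMSO libraries. Of these 7 rows 2 fell with RA and 1 with 4-oxo-RA (both copies of gsc with RA and gsc.S with 4-oxo-RA). With the block 3 of the 7 fell with each retinoid, namely gsc.L, gsc.S and frzb.L itself (edgeR adjusted p = 0.00012 for gsc.L with 4-oxo-RA). In the other direction hhex.S had 5.5, 5.66 and 6.69 CPM in RA libraries, above its 4.38, 3.85 and 3.54 CPM in DMSO libraries, with no call. The part of that tissue in the frzb.L values was not tested.

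Frzb2.L, a further frizzled-related antagonist, had 67.6, 30.9 and 66.5 CPM in RA libraries, 76.7, 38.1 and 62.6 CPM in 4-oxo-RA libraries and 68.9, 44.3 and 54.9 CPM in DMSO libraries. Replicate 1 was the highest and replicate 2 the lowest library in each treatment, and the retinoid changes were −0.03 ± 0.32 for RA and 0.08 ± 0.32 for 4-oxo-RA. The sfrp1 and sfrp5 rows ranged from −1.02 ± 0.86 (sfrp1.S) to 0.93 ± 0.35 (sfrp5.L) with RA and from −0.30 to 0.68 with 4-oxo-RA, with no call in either fit. Dkk1.S, a head inducer in *Xenopus* that blocks Lrp co-receptors, had 16, 23.3 and 18.9 CPM in RA libraries, 13.5, 18.6 and 16.2 CPM in 4-oxo-RA libraries and 11.4, 17.3 and 15.7 CPM in DMSO libraries. These overlapped, and its changes of 0.39 ± 0.21 with RA and 0.12 ± 0.21 with 4-oxo-RA were not called. Dkk3.S, a divergent Dickkopf, stayed under 1 CPM in every library, with 0.275, 0.476 and 0.301 CPM in RA libraries, 0.836, 0.792 and 0.130 CPM in 4-oxo-RA libraries and 0.104, 0.725 and 0.169 CPM in DMSO libraries.

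**Figure D3:**
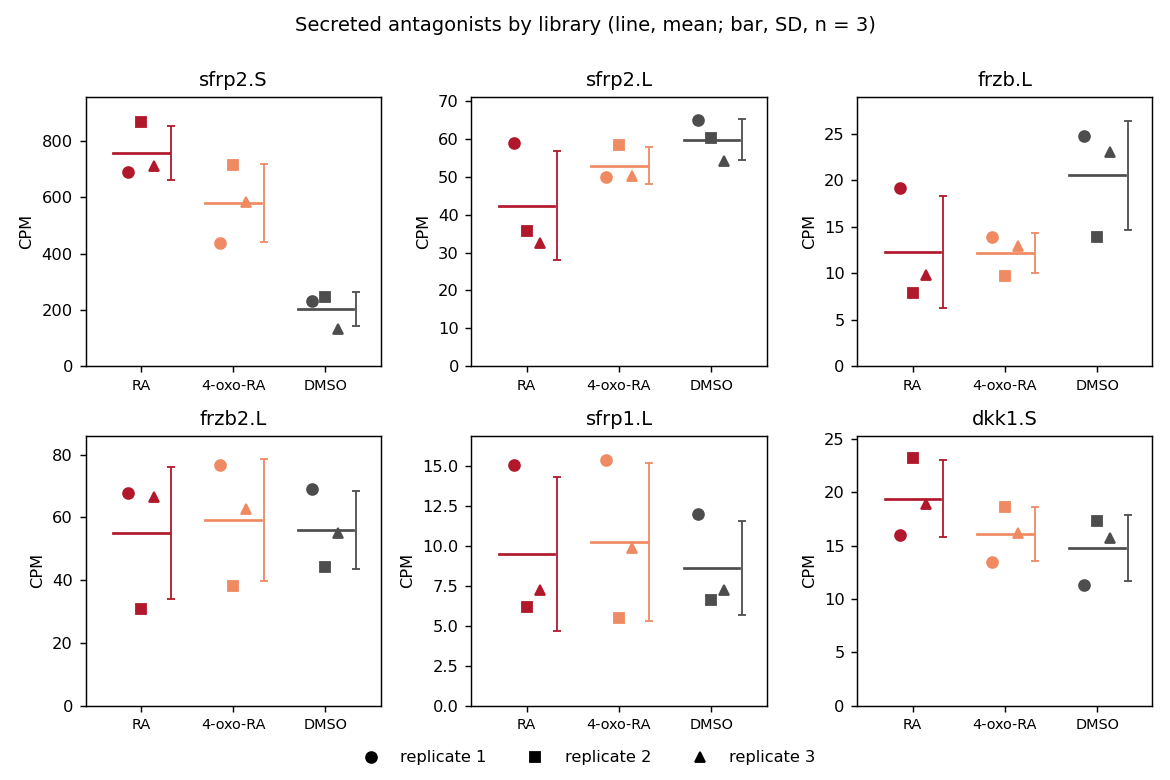
CPM by library (points, with shapes for replicate numbers) for 6 rows of secreted antagonists, with the mean as a line and the SD as a bar (n = 3 each). For sfrp2.S the 6 retinoid points, 438 to 866 CPM, lie above the DMSO points, and replicate 2 is the highest library in every treatment. For frzb.L, frzb2.L, sfrp1.L and dkk1.S the same replicate number is highest, and the same number lowest, in every treatment.

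The replicate number ordered some genes in the same way in all treatments, in the set about as often as over all genes. The same number was highest in the 3 groups for 14 of the 45 tested genes (31.1%, against 32.6% of all genes) and lowest for 14 (31.1%, against 32.3%). For 7 genes both held (15.6%, against 13.6% of all genes), namely dkk1.S, frzb.L, frzb2.L, sfrp1.L, sfrp1.S, sfrp5.S and wnt8a.L. Replicate 1 was the highest library for frzb.L, frzb2.L, sfrp1.L and sfrp1.S, but the lowest for dkk1.S and sfrp5.S, and wnt8a.L was highest in replicate 3. Replicate 1 was also the highest library of the somite marker actc1.L in each group, and the part of trunk tissue in these orders was not tested.

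The copies of a gene did not always move together. In 14 homeolog pairs with both copies tested, the change of the log2 ratio of L to S was compared by limma over 3512 pairs of the table. With RA 2 of the 14 were called, sfrp2 and wnt5b, against 1.17% of all pairs, and with 4-oxo-RA sfrp2 alone, against 0.285% of all pairs. With the block both genes were called with RA (4.41% of all pairs) and with 4-oxo-RA (1.91%). The L copy of sfrp2 made up 7.87%, 3.95% and 4.38% of the pair's counts in RA libraries, 10.2%, 7.57% and 7.93% in 4-oxo-RA libraries and 22.0%, 19.7% and 28.9% in DMSO libraries. The L to S ratio fell by 2.48 ± 0.27 on the log2 scale with RA (limma adjusted p = 0.00297) and by 1.71 ± 0.27 with 4-oxo-RA (limma adjusted p = 0.0316). The L copy of wnt5b made up 78.5%, 67.4% and 75.1% in RA libraries, 86.3%, 72.7% and 78.4% in 4-oxo-RA libraries and 90.5%, 90.4% and 92.2% in DMSO libraries. Its ratio fell by 1.79 ± 0.36 with RA (limma adjusted p = 0.0413), and the value of −1.33 ± 0.36 with 4-oxo-RA was called with the block alone (limma adjusted p = 0.25 by treatment, 0.0428 with the block). Whichever of the 6 libraries compared was left out, 1 pair was called with RA and 0 with 4-oxo-RA, among the 13 or 14 pairs then tested. The sfrp2 ratio call with 4-oxo-RA was thus lost with each omission, and with RA sfrp2 and wnt5b were never both called.

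The copies of fzd5 differed in the other direction. Its L copy made up 36.9%, 39.7% and 46.3% in RA libraries, 39.9%, 34.1% and 53.5% in 4-oxo-RA libraries and 27.2%, 24.2% and 29.8% in DMSO libraries, without overlap, but the ratio changes of 0.90 ± 0.33 and 0.98 ± 0.33 were not called (limma adjusted p = 0.367 for RA and 0.456 for 4-oxo-RA). For wnt1, wnt4, fzd8 and fzd10 the ratio changes were −0.49 ± 0.52, 0.25 ± 0.33, 0.03 ± 0.14 and 0.17 ± 0.23 with RA, with no call. The median size of the ratio change over the 14 pairs was 0.69 with RA and 0.57 with 4-oxo-RA, beside 0.22 and 0.19 over all pairs. How reads shared by both copies were counted is not given in the sources used here, and the levels of the copies carry that uncertainty.

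**Figure D4:**
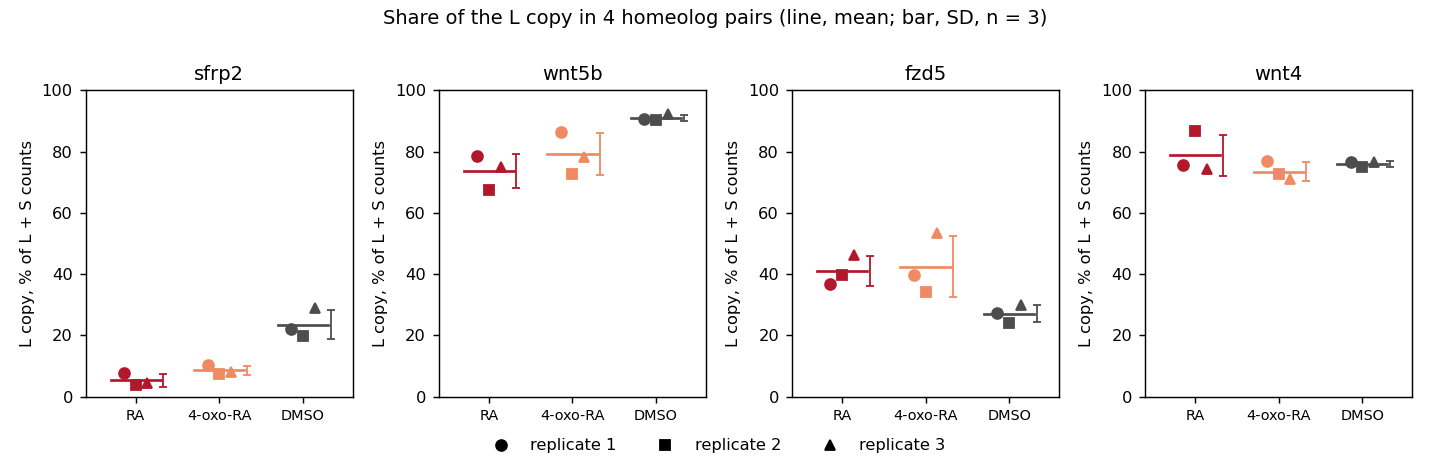
Share of the L copy in the counts of the L and S copies together (percent, vertical axis) by library for sfrp2, wnt5b, fzd5 and wnt4, with the mean as a line and the SD as a bar (n = 3 each). The L share of sfrp2 and wnt5b is lower in retinoid libraries than in every DMSO library, that of fzd5 is higher, and that of wnt4 overlaps.

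Direct comparison of 4-oxo-RA with RA, a single pair of compounds at doses that differ (10 µM and 1 µM), called none of the 45 genes, and 0 of all genes tested. The same count of 0 among the 45 was given by DESeq2 and by the block, while all genes gave 13 calls with DESeq2 and 33 with the block (0.159%). Among the 45, wnt4.S alone had an unadjusted edgeR p below 0.05 in the fit by treatment, beside 532 of all genes. With the block 5 of the 45 did, beside 1600 of all genes. The wnt4.S values of 4.28, 6.89 and 5.67 CPM with 4-oxo-RA and 4.67, 1.43 and 2.41 CPM with RA overlapped. In the fit by treatment the difference was 1.01 with a 95% interval from 0.11 to 1.91 (log2) and an edgeR adjusted p of 1. The interval in that fit was −0.01 to 1.21 for wnt4.L, −0.88 to 0.11 for sfrp2.S, −1.07 to 0.14 for wnt5b.S and −0.29 to 1.20 for wnt8b.S. For wnt1.L it reached from −0.98 to 1.89, the widest of these intervals. The fzd6.S libraries were the only ones of the 45 that did not overlap (6.48% of all genes), with a difference of 0.35 and an interval from −0.15 to 0.84. In the L to S ratios of the 14 homeolog pairs limma called 0, and 1 pair, sfrp2, had an unadjusted p below 0.05. A p above the threshold does not show that the compounds act alike, and at these doses the effect of the structure cannot be told apart from that of the dose.

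Around the ligand and receptor families, each pathway list had 0 to 2 rows called with each retinoid in the fit by treatment. Over all genes 1.68% were called with RA and 0.735% with 4-oxo-RA in that fit, or 6.67% and 3.36% with the block. Calls of pathway rows were not checked with a replicate number left out. Of 16 co-receptor and surface receptor rows 1 rose with each retinoid, ror2.L, a receptor of Wnt5a, with 172 CPM on average in RA libraries, 166 CPM in 4-oxo-RA libraries and 90.3 CPM in DMSO libraries (0.93 ± 0.13 with RA, edgeR adjusted p = 0.00323, and 0.88 ± 0.13 with 4-oxo-RA, edgeR adjusted p = 0.0076). With the block gpc4.S, a glypican, fell with RA (−0.46 ± 0.11, edgeR adjusted p = 0.0192), and kremen2.S, a Dickkopf receptor, rose with 4-oxo-RA (1.77 ± 0.40, edgeR adjusted p = 0.0228). Of 18 other secreted or membrane regulators 1 fell with RA, rspo2.L, which strengthens Wnt signals through Lgr receptors, at 3.23 CPM in RA libraries and 11.2 CPM in DMSO libraries on average (edgeR adjusted p = 0.0271). With 4-oxo-RA 2 of these 18 fell, both copies of szl, an sFRP relative that inhibits Tolloid proteases of the BMP pathway in the frog (−1.26 ± 0.24 for szl.L and −1.09 ± 0.20 for szl.S, edgeR adjusted p = 0.0433 and 0.0332). The median of the 18 was −0.51 with RA and −0.44 with 4-oxo-RA, and with the block 6 fell with RA and 5 with 4-oxo-RA, among them apcdd1.L, a membrane inhibitor of Wnt signals, and, with RA, wif1.L, a Wnt-binding inhibitor.

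Inside the cell, ctnnbip1.S, which keeps beta-catenin from Tcf, was the single row of 25 cytoplasmic transducers that rose with RA, with 54.4 CPM in RA libraries and 32.0 CPM in DMSO libraries on average (0.77 ± 0.17, edgeR adjusted p = 0.0492). None of the 25 was called by edgeR with 4-oxo-RA in that fit (2 at an unadjusted p below 0.05), and with the block ctnnbip1.S was. With RA and the block ctnnb1.L, which encodes beta-catenin itself, fell (−0.24 ± 0.06, edgeR adjusted p = 0.0318). No row of 14 nuclear partners was called by edgeR by treatment (5 with RA and 3 with 4-oxo-RA at an unadjusted p below 0.05), while with the block 4 fell and 1 rose with RA and 2 fell with 4-oxo-RA, among them tle1.S, a co-repressor, after both. Over all 20811 genes, 1961 with RA and 1298 with 4-oxo-RA had an unadjusted p below 0.05. Of 16 rows of beta-catenin target genes 2 fell with RA and 1 with 4-oxo-RA, these being sp5 copies. With RA the changes were −2.25 ± 0.25 for sp5.L and −2.17 ± 0.31 for sp5.S (edgeR adjusted p = 0.000732 and 0.00407). With 4-oxo-RA sp5.L changed by −1.51 ± 0.24 (edgeR adjusted p = 0.0148). The median of the 16 was −0.34 with RA and −0.15 with 4-oxo-RA. With the block 7 of the 16 fell and 2 rose with RA, and 3 fell and 2 rose with 4-oxo-RA. Among the risers was myc.S (0.66 ± 0.08 with RA, edgeR adjusted p = 0.000134, and 0.50 ± 0.08 with 4-oxo-RA, edgeR adjusted p = 0.00267). The summed target rows ran from 731 to 976 CPM in RA libraries, 793 to 965 CPM in 4-oxo-RA libraries and 716 to 826 CPM in DMSO libraries. In every library myc.L and myc.S were the highest of these rows, so the sum mostly follows myc. Planar polarity rows, 14 in all, had no edgeR call by treatment (5 with RA and 3 with 4-oxo-RA at an unadjusted p below 0.05), and with the block prickle1.S, prickle1.L and daam1.L rose with RA and the prickle1 copies with 4-oxo-RA. For prickle1.S, a core planar polarity protein, the averages were 77.0 CPM in RA libraries, 80.3 CPM in 4-oxo-RA libraries and 45.2 CPM in DMSO libraries.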

How the data were processed

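Messenger RNA was sequenced from 9 libraries of anterior embryo pieces. Per the labels' protocols, 500 ng of total RNA entered a stranded mRNA kit with 12 PCR cycles, and all libraries shared 1 sequencing lane. The submitters' processing notes name the aligner STAR, version 2.7.3. No coordinates are printed, because the build, like the annotation, the counter and the treatment of reads shared by homeologs, is not given in the sources used here. The deposited values are raw counts per gene, without normalization by the authors.

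Groups and replicate numbers came from the sample titles. The test was edgeR 4.0.16 (R 4.3.3; quasi-likelihood, TMM, filterByExpr by group, 9 libraries in 1 fit, treatment alone), with Benjamini-Hochberg adjustment over 20811 of 58413 genes and calls below 0.05. The L to S log2 CPM ratio (prior count 2) of 3512 homeolog pairs was tested with limma 3.58.1. The fits by treatment were run on simulated data with less spread than these libraries and no effect of replicate number. The fits with the block were not run on simulated data. DESeq2 1.42.0, RLE scaling, other filters, 2-group fits, summed homeologs and single-library omissions were alternatives. Deviations from group means correlated at r = 0.434 to 0.536 between libraries of the same replicate number and at −0.326 to −0.132 otherwise, so the numbers pair the samples by the data, not by the labels, and the block is an alternative fit. No library duplicated another of its own group (chi-square 14.3 to 21.6 per degree of freedom between replicates). Pairs of libraries from different groups were not compared in this way.

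Genes given by library were those called in either fit, their homeologs and the 3 tested genes of highest mean DMSO level in each class. Pathway genes were named when called, at most 3 per list and comparison. Genes, lists and tests were chosen with earlier results of these data known. A limit for 0 counts is 3 counts over a group and covers counting error only.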

Additional observations from a re-analysis of the deposited data

How the results depend on the processing

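The sfrp2.S rise with both retinoids was called under every alternative tried, with 4-oxo-RA at an edgeR adjusted p of up to 0.0478 with a library left out. Genes of the set called with RA numbered 3, against 7 with DESeq2, 10 with no filter on low counts, 14 with the replicate block and 1 to 6 with a library left out. With 4-oxo-RA they numbered 1, against 4 with DESeq2, 6 with no filter, 9 with the block and 1 throughout with a library left out. Over all genes the RA count was 349, against 651 with DESeq2, 831 with no filter, 1389 with the block and 194 to 366 with a library left out, and the 4-oxo-RA count 153, against 336, 453, 700 and 75 to 112. For 4-oxo-RA against RA the counts over all genes were 0 in the fit by treatment, 13 with DESeq2, 46 with no filter and 33 with the block, and the set had 0 calls in each. Homeolog pairs called with RA numbered 2, and 1 with any library left out. With 4-oxo-RA they numbered 1, against 2 with the block and 0 with any library left out. The block changed no other count of pairs.

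With L and S counts summed, sfrp2 rose by 1.60 with RA and 1.27 with 4-oxo-RA, opposite in sign to sfrp2.L. Summed wnt5b was not called with RA (−0.01 ± 0.2, log2, SE, edgeR adjusted p = 0.999), although wnt5b.S alone was called higher. Without RA replicate 1, wnt1.S, wnt4.L and sfrp2.L were called with RA as well (edgeR adjusted p = 0.00474, 0.0317 and 0.0210).

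Blocked counts without replicate number 1, 2 or 3, an alternative chosen after seeing the data, were 13, 10 and 8 for RA and, for 4-oxo-RA, 6, 3 and 3. The genes of the set then tested were 44, 42 and 42. Calls over all genes were not counted in these fits, so these counts are not set against a share of all genes. For 4-oxo-RA against RA the blocked counts were 3 (wnt4.L, wnt4.S and sfrp2.L, all higher with 4-oxo-RA), 0 and 0. The causes of these differences were not tested. With 3 libraries a group, changes of ligands near 1 CPM rest on few counts.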

Other observations

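The table holds 10 further rows with provisional names of these families, outside the symbol rule. Beside the wnt8b and fzd4 rows, the provisional fzd2 row had 137, 111 and 139 CPM in RA libraries, 139, 132 and 135 CPM in 4-oxo-RA libraries and 110, 103 and 117 CPM in DMSO libraries. The 4-oxo-RA libraries lay above DMSO and the RA libraries overlapped with it, with changes of 0.30 ± 0.11 and 0.23 ± 0.11 (log2, SE) and no call by edgeR (adjusted p = 0.557 and 0.570). The provisional fzd8 row had 0 counts in every library, and the wnt2 row had 18 counts in all. The dkk3, wnt7a, wnt7b and fzd1 rows ranged from −0.50 to 0.63 with RA, with no call in either fit.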
